A study of Mus musculus with 8 samples.

Results

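The genes that write, copy, oxidise and read DNA methylation were followed in wild-type and Foxa2 null mouse embryos at embryonic day 7.5, the stage between mid-streak and head-fold. They are the methyltransferases Dnmt1, Dnmt3a and Dnmt3b, the cofactors Dnmt3l and Uhrf1, the dioxygenases Tet1, Tet2 and Tet3, and the methyl-CpG-binding domain proteins Mbd2 and Mbd3. These are 10 of the 18336 genes the arrays name. All probe sets annotated to these genes alone were taken, where a probe set is a group of short probes that measures a transcript. There were 32, of 57459 in all, with 9 on the U74Av2 arrays (6 genes) and 23 on the MOE430v2 arrays (10 genes).

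RNA came from 2 pools of wild-type embryos (53 and 50 embryos) and 2 pools of Foxa2 null embryos (53 and 48 embryos), with every one of the 4 extracts hybridised to 1 array of either platform, so n was 2 pools per genotype throughout. Wild-type embryos came from timed matings of ICR mice. Foxa2 null embryos were grown from Foxa2 null embryonic stem cells by tetraploid complementation, in which a tetraploid host carrying EGFP forms the extra-embryonic tissues, visceral endoderm included, and the stem cells form the epiblast. The labels describe the tissue as epiblast only, with the sexes mixed and the extra-embryonic region cut away, and by the methods the mutants kept visceral endoderm of the host. The labels of the mutant MOE430v2 arrays also give ICR, and genotype, origin of the embryos and genetic background cannot be told apart. Wild-type pool 2 held the youngest embryos by staging. In such pools fewer cells of a type and less RNA per cell cannot be told apart.

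DNA methylation in mammals is placed on cytosines next to guanines (CpG) and is copied after replication. Dnmt3a and Dnmt3b methylate new sites, Dnmt3l stimulates them without being an active enzyme itself, and Uhrf1 recognises half-methylated DNA behind the replication fork and brings in Dnmt1. The Tet enzymes oxidise the methyl group and so open a path to its removal. Mbd2 binds methylated CpG, and Mbd3, its close relative, is a core protein of the NuRD chromatin remodelling complex. In the mouse the genome is remethylated around implantation, when Dnmt3b is a leading enzyme of the epiblast, so gastrulation falls just after the main wave.

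The sequences before the start sites of these genes differ in how much CpG they hold, and 2 of them are shown for that contrast. RefSeq windows of 300 bases (250 before and 50 after a start, build GRCm38.p6) were taken for 9 of the 10 genes, 16 windows in all. Windows of Mbd2 were not included, so the counts below do not cover that gene. CpG (CG, which reads alike on either strand) is in capitals. Dnmt3b (chr2:153649199-153649498, plus strand) held 30 CpG, a number that 11.7% of the 32851 windows reached.
Dnmt3b: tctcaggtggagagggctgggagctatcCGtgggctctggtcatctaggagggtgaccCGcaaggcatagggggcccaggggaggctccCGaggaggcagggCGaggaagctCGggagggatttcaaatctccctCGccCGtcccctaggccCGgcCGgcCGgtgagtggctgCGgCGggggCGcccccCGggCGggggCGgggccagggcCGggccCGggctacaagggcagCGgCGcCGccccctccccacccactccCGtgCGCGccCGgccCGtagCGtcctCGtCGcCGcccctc
Dnmt3l (chr10:78042037-78042336, plus strand) held 6 CpG, and 56.4% of all windows held that many or more.
Dnmt3l: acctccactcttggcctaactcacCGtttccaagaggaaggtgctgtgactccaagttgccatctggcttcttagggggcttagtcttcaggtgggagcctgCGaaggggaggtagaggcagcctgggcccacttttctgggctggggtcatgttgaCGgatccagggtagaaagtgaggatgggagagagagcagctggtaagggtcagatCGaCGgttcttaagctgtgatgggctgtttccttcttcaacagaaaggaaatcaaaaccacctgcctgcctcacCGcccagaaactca
The median window held 7 CpG. Of the 16 windows, 12 held more, and the 4 that did not were all 3 of Dnmt3l (6, 4 and 3) and 1 of the 3 of Dnmt1 (2, against 12 and 33 in the others). The Tet2 window was the most CpG-dense of the 16, with 57. The forkhead core TGTTTAC, searched on both strands (GTAAACA on the other), was in 0 of the 16 windows and in 3.65% of all windows, which says only that these letters are not in these stretches.

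Across the 10 genes the arrays showed no change that passed the test. Of the member probe sets, 6 on U74Av2 and all 23 on MOE430v2 were above the filter on low signal and were tested. The 3 that were not, on U74Av2, belong to Dnmt3a, Tet1 and Mbd2. Of those tested, 0 passed an adjusted p under 0.05 by limma with Benjamini-Hochberg adjustment over all probe sets of the platform. The share of all tested probe sets that passed was 0.173% lower and 0.104% higher in Foxa2 null on U74Av2, and 0.244% lower and 0.19% higher on MOE430v2. Even at an unadjusted p under 0.05, which 10% and 12.1% of all probe sets reached, the member count was 0. On leaving out 1 pool that count was 1 on U74Av2 without wild-type pool 2, and on MOE430v2 it was 3 without wild-type pool 1, 2 when Foxa2 null pool 1 was left out and 1 when Foxa2 null pool 2 was. The lowest unadjusted p by limma was 0.122 on U74Av2 and 0.0611 on MOE430v2, and adjusted p ran from 0.638 to 0.948 and from 0.442 to 0.99. With 2 pools per genotype, 0.333 is the smallest p an exact permutation test can give.

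Values are log2 of the signal, ratios are Foxa2 null minus wild-type on that scale, and the value given for a gene is that of its probe set with the highest mean signal. The median ratio of the member probe sets was 0.01 on U74Av2 and 0.07 on MOE430v2, where that of all tested probe sets was -0.018 and -0.00072. The median size of the ratio, sign aside, was 0.11 and 0.16 for the members and 0.20 and 0.25 for all. On U74Av2 both Foxa2 null pools were below both wild-type pools at 2 member probe sets (21.4% of all) and above them at 1 (18.6% of all), and at 3 the pools overlapped. On MOE430v2 these counts were 3 lower (21.8% of all), 4 higher (21.5% of all) and 16 overlapping. The gap between the 2 wild-type pools was larger than the ratio at 4 of 6 and 15 of 23 member probe sets, and at 55.4% and 53.6% of all.

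**Figure D1:**
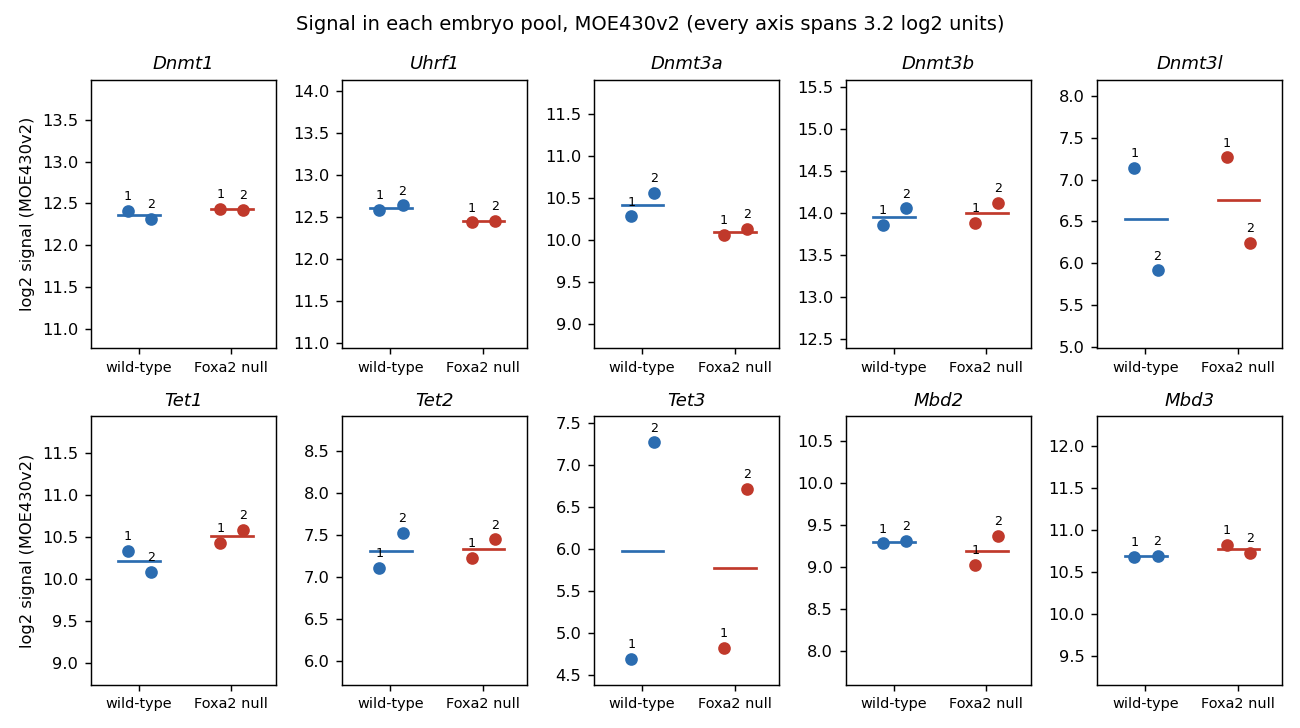
Log2 signal of the 10 genes on MOE430v2 in each wild-type (blue) and Foxa2 null (red) pool, numbered 1 and 2, at the probe set with the highest mean signal; lines are group means, and every axis spans the same width. Genotypes lie apart by little in Dnmt1 (0.07) and Uhrf1 (-0.17), while in Dnmt3l and Tet3 the pools of either genotype lie far from each other.

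How small a change the arrays could have shown differed by gene. The 95% interval of the ratio stayed within 1.5-fold either way for 4 of 6 member probe sets on U74Av2 and 10 of 23 on MOE430v2, against 27.8% and 24.1% of all tested probe sets. It stayed within 2-fold for 4 and 17, against 67.6% and 52.9% of all. For the other 2 and 6 member probe sets the interval reached past 2-fold in at least 1 direction, so a difference of that size is not excluded there.

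**Figure D2:**
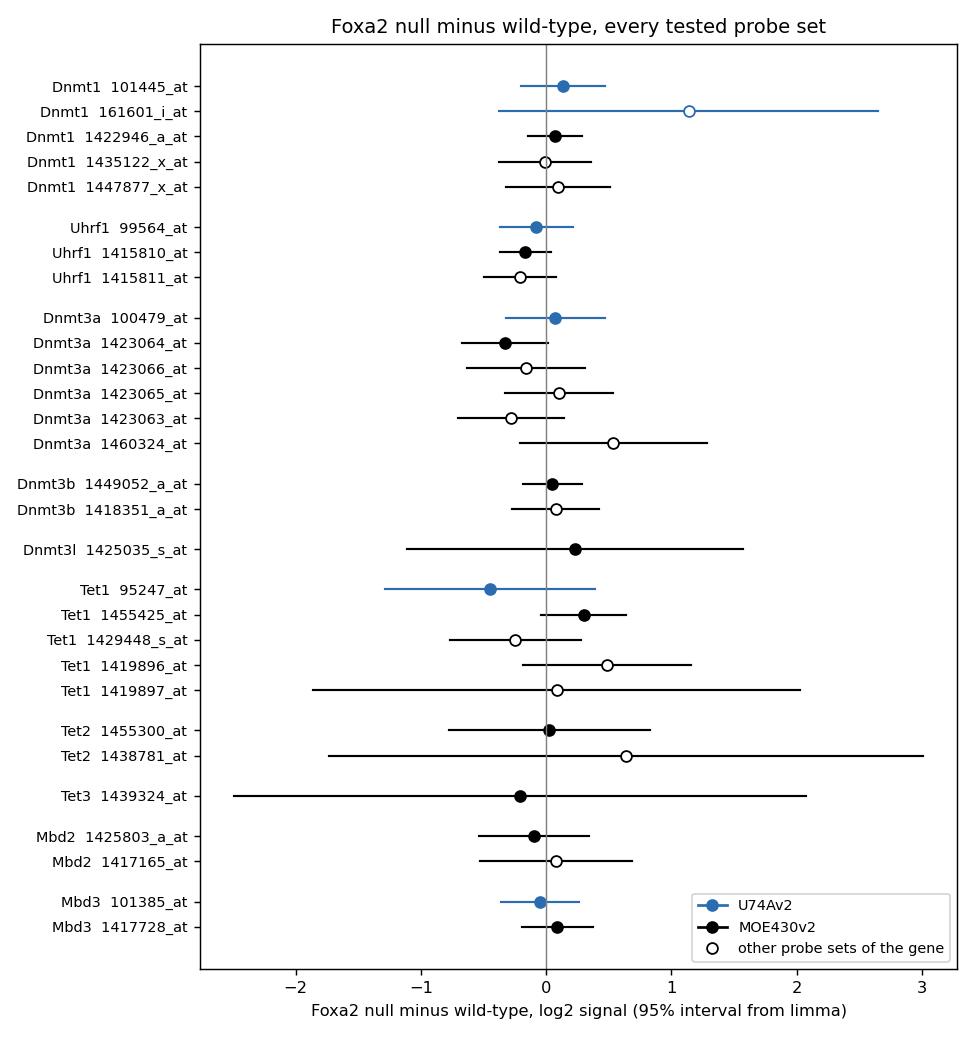
Ratio of Foxa2 null to wild-type (log2, points) with its 95% interval from limma (lines) for all 29 tested probe sets of the 10 genes, on U74Av2 (blue) and MOE430v2 (black); filled points are the reported probe set of each gene and open points its others. All 29 intervals cross 0. The narrowest runs from -0.37 to 0.039, for Uhrf1 on MOE430v2, and the widest from -1.73 to 3.01, for the second probe set of Tet2.

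Dnmt1, the maintenance methyltransferase, was nearly level. On MOE430v2 its log2 signal was 12.41 and 12.31 in wild-type pools 1 and 2 and 12.44 and 12.43 in Foxa2 null pools 1 and 2. Both null pools were above both wild-type pools, but by less than the gap between the wild-type pools. The ratio was 0.07 (standard error, SE, 0.09; adjusted p = 0.81 by limma), or 1.05-fold with a 95% interval of 0.906 to 1.22. On U74Av2 it was 10.05 and 9.76 against 10.09 and 9.98, a ratio of 0.14 (SE 0.15; limma adjusted p = 0.831). Wild-type pool 2 was the lowest pool at these 2 probe sets and also at both other MOE430v2 probe sets of Dnmt1 (ratios -0.0083 and 0.10), whose suffix _x_at marks possible cross-hybridisation. The other U74Av2 probe set of Dnmt1 was dim, with deposited signals of 6.2 and 22.3 in wild-type and 22.7 and 29.5 in null pools, and its ratio of 1.14 had a standard error of 0.66.

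Uhrf1, the partner that recruits Dnmt1, was slightly lower in null pools at each of its 3 probe sets, without passing the test. On MOE430v2 it was 12.59 and 12.64 in wild-type and 12.44 and 12.46 in Foxa2 null pools, so the genotypes did not overlap. The ratio was -0.17 (SE 0.09; limma adjusted p = 0.518), with a 95% interval of 0.774- to 1.03-fold. The second MOE430v2 probe set had 11.50 and 11.75 against 11.33 and 11.51, with overlap, and a ratio of -0.21. On U74Av2 Uhrf1 was 10.09 and 10.07 against 10.04 and 9.97, again without overlap, and the ratio was -0.08 (SE 0.13). With both platforms averaged per pool the Uhrf1 ratio was -0.12 (SE 0.09; limma adjusted p = 0.605).

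Dnmt3b, the de novo enzyme of the epiblast, was among the brightest probe sets of the array, above 99.4% of them, and was measured on MOE430v2 alone. Its log2 signal was 13.85 and 14.06 in wild-type and 13.89 and 14.12 in null pools. The genotypes overlapped, and in each the number 2 pool was higher. The ratio was 0.05 (SE 0.10; limma adjusted p = 0.889), which is 1.04-fold with an interval of 0.88 to 1.22. The other probe set had 12.12 and 12.28 against 12.03 and 12.52, and a ratio of 0.08.

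Dnmt3a, the other de novo enzyme, had the lowest p of the 10 genes and also probe sets that disagreed. At the brightest it was 10.28 and 10.56 in wild-type and 10.06 and 10.13 in null pools, with no overlap. The ratio was -0.33 (SE 0.15; limma unadjusted p = 0.0611, adjusted p = 0.442), with an interval of 0.628- to 1.01-fold. The fourth in brightness was also lower in both null pools, with 9.49 and 9.41 against 9.01 and 9.33. At the remaining 3 MOE430v2 probe sets the pools overlapped, and the ratios were -0.16, 0.11 and 0.54. On U74Av2 Dnmt3a was 7.96 and 7.72 against 7.93 and 7.91, a ratio of 0.07 (SE 0.17). The average of both platforms was -0.13 (SE 0.12; limma adjusted p = 0.706).

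Dnmt3l, the inactive cofactor, was dim, close to the array medians of 155 to 165 in pools 1 and below them in pools 2, on the scale of the deposited signals. These were 159 and 69.6 in wild-type and 167 and 88.1 in Foxa2 null pools. Pool 1 was the higher in either genotype, by 1.22 in wild-type and 1.02 in null pools on the log2 scale, so the spread within a genotype was several times the ratio of 0.23 (SE 0.59; limma adjusted p = 0.916). The interval of 0.462- to 2.97-fold leaves room for a change in either direction.

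Tet1, the dioxygenase best known from embryonic stem cells, differed in sign between its probe sets and platforms. On MOE430v2 its brightest probe set had 10.33 and 10.08 in wild-type and 10.43 and 10.59 in null pools, without overlap, and the ratio was 0.30 (SE 0.15; limma adjusted p = 0.475; interval 0.972- to 1.56-fold). The third in brightness was also higher in both null pools (8.05 and 8.19 against 8.22 and 8.99). The second, with 10.32 and 10.12 against 9.60 and 10.35, had a ratio of -0.24, in which Foxa2 null pool 1 was the lowest and pool 2 the highest. On U74Av2 the tested probe set was dim, with deposited signals of 40.5 and 41.1 in wild-type and 23.1 and 38.7 in null pools. These lay below the array medians of 48 to 52.8. Foxa2 null pool 1 again stood lowest there, with 4.53 beside 5.27 in null pool 2 and 5.34 and 5.36 in wild-type, and the ratio was -0.45 (SE 0.37). Leaving out Foxa2 null pool 1 brought it to -0.076, and leaving out pool 2 of that genotype to -0.82. At the dimmest MOE430v2 probe set the wild-type pools lay 2.69 apart, and the ratio was 0.08 (SE 0.86). Averaged over both platforms with equal weight, Tet1 was at -0.07 (SE 0.19; limma adjusted p = 0.896).

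Of the other dioxygenases, Tet2 was near the middle of the MOE430v2 array, above 53.5% of the probe sets, and Tet3 was dim. The interval of Tet3 was much the wider. Tet2 was 7.10 and 7.52 in wild-type and 7.23 and 7.45 in null pools, which overlapped, with a ratio of 0.02 (SE 0.36, interval 0.583- to 1.78-fold). At its other probe set the wild-type pools alone lay 3.45 apart on the log2 scale, and the ratio was 0.64 (SE 1.05). Tet3 had deposited signals of 29.1 and 181 in wild-type and 30.8 and 124 in null pools. The number 1 pool was low and the number 2 pool high in either genotype, and the ratio was -0.21 (SE 1.01, interval 0.178- to 4.21-fold). Neither gene could be placed more closely than these intervals.

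Mbd2, a reader that binds methylated CpG, was 9.28 and 9.31 in wild-type and 9.02 and 9.37 in null pools on MOE430v2. The null pools lay on either side of the wild-type pools, and the ratio was -0.10 (SE 0.19; limma adjusted p = 0.884), with 0.08 at the second probe set. On U74Av2 its probe set fell below the filter and was not tested. Its deposited signals there were 25.1 and 11.3 in wild-type and 10.4 and 2.5 in null pools, a ratio of -1.72 at very low signal. Mbd3 was 10.68 and 10.70 against 10.83 and 10.73 on MOE430v2, a ratio of 0.09 (SE 0.12, interval 0.874- to 1.29-fold), and 9.60 and 9.48 against 9.49 and 9.48 on U74Av2, a ratio of -0.05 (SE 0.14). Over both platforms Mbd3 was at 0.02 (SE 0.11) and Dnmt1 at 0.10 (SE 0.11), so 0 of the 5 members tested in that fit passed, where 1.06% of its 5933 genes were lower and 1.35% higher, and 0 had an unadjusted p under 0.05, where 15.3% of its genes did.

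**Figure D3:**
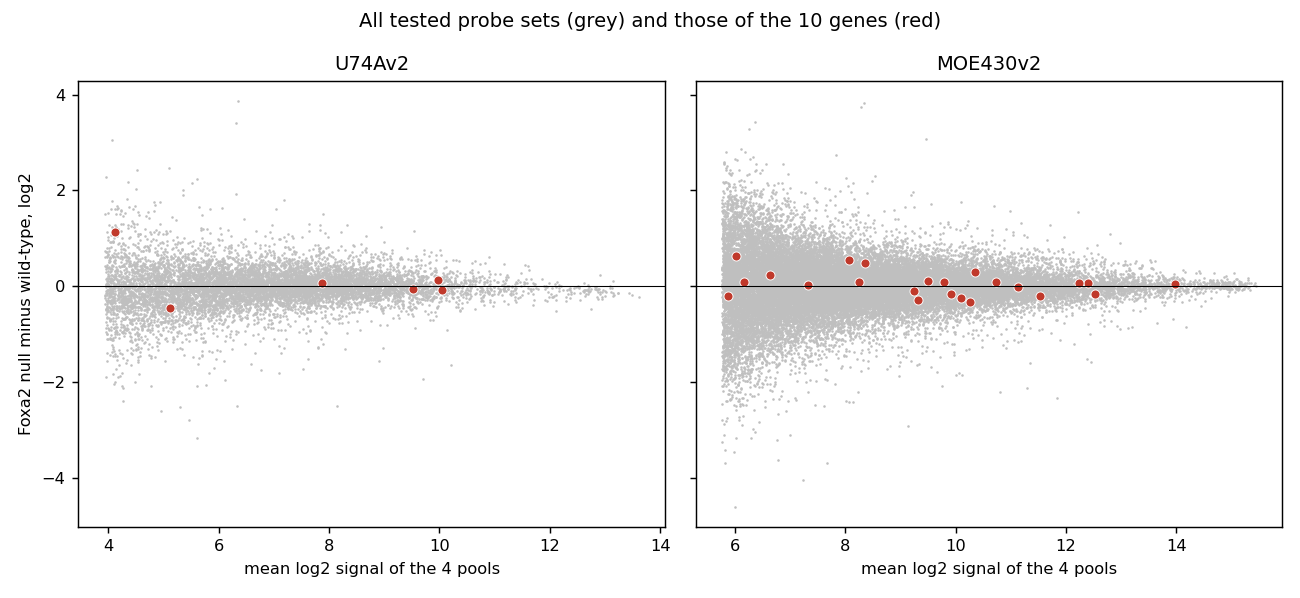
Ratio of Foxa2 null to wild-type (log2) against mean log2 signal of the 4 pools for all tested probe sets (grey) and those of the 10 genes (red), on U74Av2 (left) and MOE430v2 (right). The red points follow the grey spread, from the bright Dnmt3b probe set near 0 to the dim Dnmt1 probe set of U74Av2 at 1.14.

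Foxa2 itself was lower in both null pools on either platform, and passed the test only in the fit over both. Foxa2 on U74Av2 was 7.37 and 8.08 in wild-type and 6.39 and 6.55 in null pools, and on MOE430v2 9.62 and 10.17 against 8.96 and 9.06. Its ratio was -1.25 and -0.88 (adjusted p = 0.13 and 0.141 by limma), and -1.07 over both platforms (adjusted p = 0.0309 by limma). Whether its probe sets lie in the deleted part was not tested. Of the markers of node, notochord and definitive endoderm, 8 of 9 tested were below 0 on U74Av2 and 10 of 10 on MOE430v2, with medians of -1.12 and -1.16.

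Genes that work with the 10 were also read from 8 lists with 78 genes, of which 40 were tested on U74Av2 and 64 on MOE430v2. On either platform 0 passed the adjusted threshold by limma. At an unadjusted p under 0.05, 2 were higher and 1 lower on U74Av2 (5.01% of all probe sets in each direction). On MOE430v2 7 were higher and 1 lower (6.03% and 6.07% of all). The median ratio over these genes was -0.0083 on U74Av2 and 0.08 on MOE430v2.

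The maintenance partners, which load and copy with Dnmt1, lay close to 0. Of 6 tested on U74Av2, 4 were above 0 with a median of 0.01, and of 8 on MOE430v2, 7 were above 0 with a median of 0.09. Cdca7, an activator of the remodeller Hells, was lowest on U74Av2 (-0.09), and Usp7, the deubiquitinase that stabilises Dnmt1 and Uhrf1, highest (0.19). On MOE430v2 the range ran from Uhrf2, the relative of Uhrf1 (-0.03), to Smchd1, which acts on the inactive X (0.19).

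Factors that target or protect from de novo methylation were below 0 for 6 of 6 genes on U74Av2 (median -0.08), from Cxxc1, a protein that binds unmethylated CpG (-0.11), to Zfp57, which guards imprints (-0.02). On MOE430v2 5 of 10 were below 0 (median -0.01), and the range ran from Zfp57 (-0.20) to Dppa3, which protects the maternal genome (0.47, SE 0.47). The sign of Cxxc1 turned with the platform, to 0.15 on MOE430v2.

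Cofactors and repair enzymes of the demethylation path were split, with 5 of 11 above 0 on U74Av2 (median -0.04) and 8 of 15 on MOE430v2 (median 0.06). Gadd45g, a stress-response adaptor, was 5.96 and 5.59 in wild-type and 6.44 and 6.30 in null pools on U74Av2, a ratio of 0.60 (adjusted p = 0.471 by limma), and its MOE430v2 ratio was 0.06. Gadd45b had the lowest ratio on U74Av2, at -0.42 (SE 0.33), and Apobec1, a cytidine deaminase, on MOE430v2, at -0.97 (SE 0.67). Neil3, a DNA glycosylase, was 8.38 and 8.64 against 9.41 and 9.27, the highest ratio on MOE430v2 (0.83, SE 0.20, adjusted p = 0.147 by limma). Idh2, a source of the Tet cosubstrate, is named after its values were seen, as the gene with an unadjusted p under 0.05 in the lower direction on MOE430v2. It was 11.50 and 11.56 against 11.27 and 11.13 there (ratio -0.33, adjusted p = 0.29 by limma), and its ratio on U74Av2 was -0.37.

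Other methyl-CpG readers numbered 2 on U74Av2, Mbd1 (-0.10) and the glycosylase Mbd4 (0.10), and 5 on MOE430v2, from Zbtb33, also called Kaiso (-0.30, SE 0.15), to the zinc finger protein Zbtb38 (1.19, SE 0.58). The latter rested on wild-type pool 2, at 5.61 beside 7.54, 7.67 and 7.87 in the other pools.

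In the NuRD complex, to which Mbd2 and Mbd3 belong, Gatad2a was the subunit that passed the test, and it did so in the fit over both platforms. Gatad2a, a subunit that bridges the Mbd protein and the remodeller, was 9.44 and 9.71 in wild-type and 10.11 and 10.06 in Foxa2 null pools on U74Av2, and 12.29 and 12.17 against 12.74 and 12.78 on MOE430v2. At these brightest probe sets the genotypes did not overlap, as at 18.6% of all probe sets on U74Av2 and 21.5% on MOE430v2 in that direction. The ratio was 0.50 (SE 0.14; limma adjusted p = 0.244) and 0.53 (SE 0.09; limma adjusted p = 0.058), and over both platforms 0.52 (SE 0.10; limma adjusted p = 0.0304), or 1.43-fold. All 8 tested Gatad2a probe sets were above 0, from 0.14 to 0.53. The pools overlapped at the MOE430v2 probe sets with ratios of 0.43, 0.21 and 0.14. They did not at the MOE430v2 one with 0.30 and at the other U74Av2 ones (0.36 and 0.14). The both-platform call did not hold when wild-type pool 1 (adjusted p = 0.116) or wild-type pool 2 (0.0775) was left out, with median centring (0.0653) and with no trend of the variance on signal (0.213), while the ratio stayed between 0.48 and 0.55 in all alternatives.

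Gatad2a lies on chromosome 8, as does Neil3. The 344 genes of chromosome 8 tested on U74Av2 had a median ratio of 0.32 and the 739 on MOE430v2 one of 0.35, against -0.022 and -0.027 for genes of the other chromosomes. Its part in the ratios of Gatad2a and Neil3 was not tested. None of the 10 members is on that chromosome (0 genes).

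The rest of the complex showed no common direction. Over the 7 NuRD subunits tested on U74Av2 the median was -0.01, and over the 11 on MOE430v2 it was 0.09. Mta2, a subunit that binds the deacetylases, was 8.25 and 8.73 against 7.75 and 8.17 on U74Av2 (-0.53) but 10.96 and 10.85 against 11.10 and 11.42 on MOE430v2 (0.36), so the platforms gave opposite signs for the same extracts. Gatad2b, the relative of Gatad2a, is named after its values were seen, and its 5 MOE430v2 probe sets disagreed. The brightest was 9.62 and 9.85 against 10.08 and 10.18, without overlap (0.40, limma unadjusted p = 0.0334, adjusted p = 0.366). The others had ratios of -0.22, -0.42, -0.79 and -1.45, with unadjusted p = 0.0109 and 0.0143 by limma at the last 2, where the null pools were below both wild-type pools. Chd3, a remodeller, had the lowest MOE430v2 ratio, at -0.47 (SE 0.26).

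**Figure D4:**
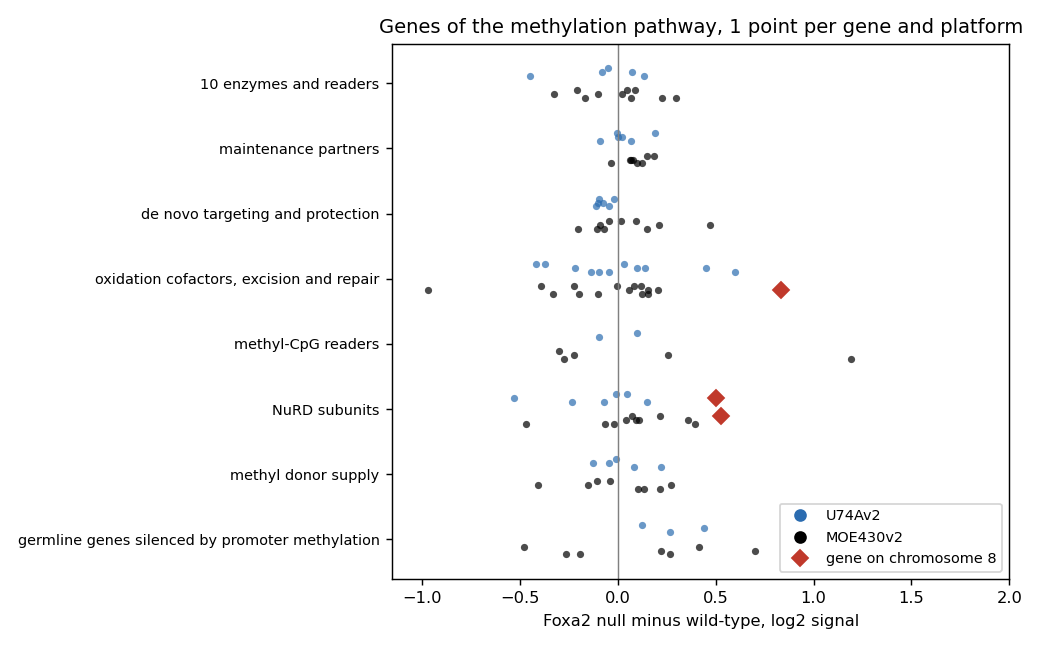
Ratio of Foxa2 null to wild-type (log2) for each gene of the 10 enzymes and readers and of 7 lists around them, on U74Av2 (blue) and MOE430v2 (black), with genes on chromosome 8 as red diamonds. The 10 genes, where tested, lie between -0.45 and 0.30, and the diamonds are Gatad2a (0.50 and 0.53) and Neil3 (0.83).

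The supply of the methyl donor was near 0 in 5 genes on U74Av2 (median -0.0062) and 8 on MOE430v2 (median 0.03). Bhmt, a remethylating enzyme, was lowest on both (-0.13 and -0.40, SE 0.68 and 0.52), and the serine hydroxymethyltransferases were highest, with Shmt1 at 0.22 on U74Av2 and Shmt2 at 0.27 on MOE430v2. Trdmt1, a relative of the Dnmt family that methylates transfer RNA, was 0.41 on U74Av2 and -0.10 on MOE430v2.

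Germline genes that are kept silent by methylated promoters are known targets of the pathway, but methylation itself was not measured here. Of the 15 listed genes 6 were on U74Av2 and 14 on MOE430v2, and 3 and 7 of these were above the filter, with medians of 0.27 and 0.22, and 3 and 4 were above 0. Rhox5 was bright on U74Av2 and MOE430v2, above 92.7% and 95.7% of the probe sets, so it was not silent in wild-type pools either. It was the highest of the list on U74Av2, with 9.27 and 8.79 in wild-type and 9.74 and 9.20 in null pools (0.44, SE 0.22), which overlapped. Whether its ratio has to do with promoter methylation was not tested. On MOE430v2 Rhox5 was 11.69 and 11.39 against 12.15 and 11.76, without overlap, a ratio of 0.41 (SE 0.15; limma unadjusted p = 0.0254, adjusted p = 0.334). The lowest on U74Av2 was Tex19.1, at 0.13. On MOE430v2 the list ran from Taf7l (-0.48, SE 0.63) to Sycp3, a protein of the synaptonemal complex (0.70, SE 0.43), whose pools overlapped.

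Markers of other cells that the pools could hold are given beside these ratios, and their part in them was not tested. On either platform alone 0 of the visceral endoderm, naive pluripotency, epiblast, proliferation and trophoblast markers passed the adjusted threshold by limma. At an unadjusted p under 0.05 there were 14 of 35 on U74Av2 and 16 of 43 on MOE430v2, against 10% and 12.1% of all probe sets. Of these markers Afp was lower in Foxa2 null on U74Av2, Sox2 and Mcm6 were lower on MOE430v2, and the others were higher. In the fit over both platforms the naive pluripotency markers Dppa5a and Klf4 and the proliferation gene Mcm5 did pass. They were higher in Foxa2 null (limma adjusted p = 0.0267, 0.0304 and 0.0424), as were 1.35% of the genes in that fit. Mcm5 lies on chromosome 8, whose part in its ratio was not tested. Of the visceral endoderm markers 8 of 10 tested were above 0 on U74Av2 and 10 of 11 on MOE430v2 (medians 0.39 and 0.38). Their summed signal was 6270 to 6294 in wild-type and 6192 to 9341 in null pools on U74Av2, and 59519 to 66877 and 67616 to 83360 on MOE430v2. Markers of naive pluripotency were above 0 for 4 of 6 and 8 of 9 genes (medians 0.69 and 0.27), with summed signals of 386 to 442 in wild-type and 523 to 524 in null pools on U74Av2 and 2289 to 2469 and 3513 to 3743 on MOE430v2. They ran from Nr0b1 (-0.25) to Dppa5a (1.76) on U74Av2. On MOE430v2 the range was from Esrrb (-0.09) to Klf4 (1.49), with Zfp42 at 0.05. Markers of the epiblast, the labelled tissue, were above 0 for 5 of 7 and 6 of 9 genes (medians 0.51 and 0.04). They ran from Sox2 (-0.40 and -0.37) to Tdgf1 (1.81 and 2.21). Their summed signals were 3226 to 3514 in wild-type and 3063 to 4099 in null pools on U74Av2. On MOE430v2 these sums were 29130 to 34893 and 30841 to 35954. Proliferation genes, with which Dnmt1 and Uhrf1 are known to vary, had medians of 0.10 and -0.03. Above 0 were 8 of 10 on U74Av2 and 3 of 11 on MOE430v2. They ran from Top2a (-0.04) to Mcm5 (0.47) on U74Av2 and from Mcm6 (-0.33) to Mcm5 (0.39) on MOE430v2. Of 10 trophoblast markers, 6 were on U74Av2 and 7 on MOE430v2, and 2 and 3 of these were above the filter.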

How the data were processed

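Each of 4 RNA extracts was measured on 1 U74Av2 and 1 MOE430v2 array, and samples were grouped by the genotype in the labels. The authors deposited 1 linear intensity for each probe set, its MAS5 signal, after bringing every array to a common target. With 2% trimmed off either end, the array mean was 150 on U74Av2 and 500 on MOE430v2. The loess step of the methods is not in the deposited values. Signals were taken to log2 in R 4.3.3 (limma 3.58.1), with U74Av2 zeros (4) set to 0.1 and MOE430v2 normalized by cyclic loess. Testing covered 8695 and 31526 probe sets, after removal of controls (66 and 64) and of the dimmest 30% by mean signal. Foxa2 null was compared with wild-type by limma's two-sided test (lmFit, then eBayes with a variance trend on signal). For genes on both platforms, values were centred per gene on each platform and averaged per extract. Chromosomes are from a GRCm38.p6 gene table. The fit was tested on simulated data. The number of arrays limits the precision, and nothing in the sources used here says how the pools were split into litters, so p-values measure the spread between these pools.

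The members and lists were chosen with earlier results of these data known. Named genes are all members with every probe set that names 1 gene, and, from each list around them, genes past the threshold and the highest and lowest ratio per platform. Alternatives were other normalizations, filters on low signal, an added offset, no intensity trend, a block, the median over a gene's probe sets, and leaving out each pool. Detection and change calls were not used here.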

Additional observations from a re-analysis of the deposited data

How the results depend on the processing

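The count of member probe sets past the threshold was 0 in each alternative tried, which were other normalizations, filters, an offset of 32 or 100, no intensity trend, the block and leaving out each pool. The count over all features did move. On U74Av2 it was 24, and 3 with no filter on low signal, 38 with the filter at 50%, 0 with no intensity trend and 15 to 38 on leaving out a pool. On MOE430v2 it was 137, and 43 with no filter, 325 with the filter at 50%, 265 with the offset, 0 with no trend and 32 to 239 on leaving out a pool. Over both platforms it was 143, and 2 with no trend, 33 with median centring and 54 to 272 on leaving out a pool.

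The labels do not say whether pools with the same number were collected or processed together. With 2 such pairs per platform their deviations from the group means correlated at r = 0.111 on U74Av2 and 0.0851 on MOE430v2. When that number entered the fit as a block, 292, 1643 and 502 features passed on U74Av2, on MOE430v2 and over both, and 0 members did, with 0, 2 and 0 of them at an unadjusted p under 0.05.

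Some member ratios turned in sign on leaving out 1 pool. On U74Av2 Dnmt1 ran from -0.010 (without wild-type pool 2) to 0.28, Dnmt3a from -0.048 (without wild-type pool 2) to 0.20 and Mbd3 from -0.11 to 0.010 (without wild-type pool 1). On MOE430v2 Dnmt3b ran from -0.069 to 0.17 (below 0 without wild-type pool 1 or Foxa2 null pool 2), Tet2 from -0.18 to 0.23 (below 0 without the same pools), Dnmt3l from -0.38 to 0.84 and Tet3 from -1.50 to 1.08 (turned without wild-type pool 2 or Foxa2 null pool 1), and Mbd2 from -0.27 to 0.076 (above 0 without Foxa2 null pool 1). Over both platforms Mbd3 ran from -0.0097 to 0.047 (below 0 without wild-type pool 2 or Foxa2 null pool 1) and Tet1 from -0.30 to 0.15 (above 0 without Foxa2 null pool 1). A genotype left with 1 pool was assumed to vary like the other. With the median over probe sets Dnmt1 was at 0.64 on U74Av2 and Tet2 at 0.33 on MOE430v2. Uhrf1 was below 0 in all alternatives, at -0.11 to -0.037 on U74Av2 and -0.19 to -0.14 on MOE430v2, and Dnmt3a on MOE430v2 at -0.47 to -0.16.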
